A study of Homo sapiens with 26 samples.

Results

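The sites listed by ChIP-seq of the estrogen receptor (ER) after a progestin alone were compared between T47D cells and PR-deficient T47D cells. Whether a listed site is a place of ER binding was not tested. Members were all rows of the ER ChIP-seq site list of R5020-treated T47D cells, 5338 sites, and all rows of the same list of R5020-treated PR-deficient cells, 9141 sites, together 14479 of the 87206 sites in the 10 lists used. Any overlap between the lists, from 1 bp up, made both sites shared. Positions are those of the hg19 build.

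T47D, an established line from a human breast cancer, carries ER and the progesterone receptor (PR), and the labels describe the second line as ER-positive and deficient in PR. The labels give neither the way PR was removed nor whether the line is 1 clone, and no list of a PR ChIP in the PR-deficient line was used, so the loss of PR was not checked in these data. Both lines were kept without steroids in charcoal-stripped serum and then given 10 nM R5020, a synthetic progestin, for 45 min, and ER was precipitated with the same antibody, HC-20. The other 8 lists came from the same design: ER after 10 nM estradiol (E2) or after both hormones in each line, PR after E2, R5020 or both in T47D (antibody KD68), and T47D chromatin precipitated for ER and then for PR after both hormones (reChIP). Each list came from 1 library, so there is no replicate check of any difference between the lines and no p-value is given.

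ER and PR are nuclear receptors that bind DNA and recruit coactivators or corepressors when their hormone is present. R5020 is a ligand of PR and is used to activate PR without estradiol, and ER and PR can be found in the same protein complexes on chromatin in breast cancer cells. A reChIP list is therefore meant to report places where material precipitated by both antibodies was found. An ER list made with R5020 alone asks where ER is found when the hormone added is the ligand of PR, and the second line asks the same in cells labelled PR-deficient.

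Few ER sites were common to the lines. Of the 5338 T47D sites, 362 (6.78%, exact Clopper-Pearson 95% interval 6.12 to 7.49) lay at a PR-deficient site, and of the 9141 PR-deficient sites, 363 (3.97%, 3.58 to 4.39) lay at a T47D site. Intervals cover counting error over sites only, not differences between libraries, and the number of reads behind a list is unknown. A vehicle library was subtracted from each list, taken here to be that of the same line and antibody since the labels do not name it. A difference between the lines in vehicle, in depth or in any other respect cannot be told apart from the deficiency in PR.

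The 365 overlapping pairs were mostly well aligned. Their median overlap was 157 bp (quartiles 110 and 206), their centres lay a median of 41.5 bp apart, and 211 pairs (57.8%) had centres within 50 bp of each other. In 11 pairs the overlap was under 50 bp. The PR-deficient site was the shorter in 245 pairs (67.1%) and lay wholly inside the T47D site in 129. Over the 365 pairs the scores of the lines had a Spearman correlation of 0.43 and a Pearson correlation of 0.59, as a description of pairs drawn from 1 library per line.

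Over the whole lists, shared pairs included, the sites of the lines lay far apart at the median. A longer list leaves a shorter distance to it, and the PR-deficient list holds 9141 sites against 5338 in T47D. The nearest PR-deficient site lay a median of 20 kb from the centre of a T47D site, and the nearest T47D site lay a median of 50.6 kb from a PR-deficient one. The same measure for E2 was 0.447 kb from T47D to PR-deficient cells and 37.6 kb in reverse. Within 200 bp of centre to centre lay 6.24% of the T47D R5020 sites against 40.8% of the T47D E2 sites, so in this 200 bp window the lines had more of their T47D sites in common with E2. Sites of the E2 lists were longer, with medians of 1171 bp in T47D and 1076.5 bp in PR-deficient cells against 248 bp and 236 bp with R5020.

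**Figure D1:**
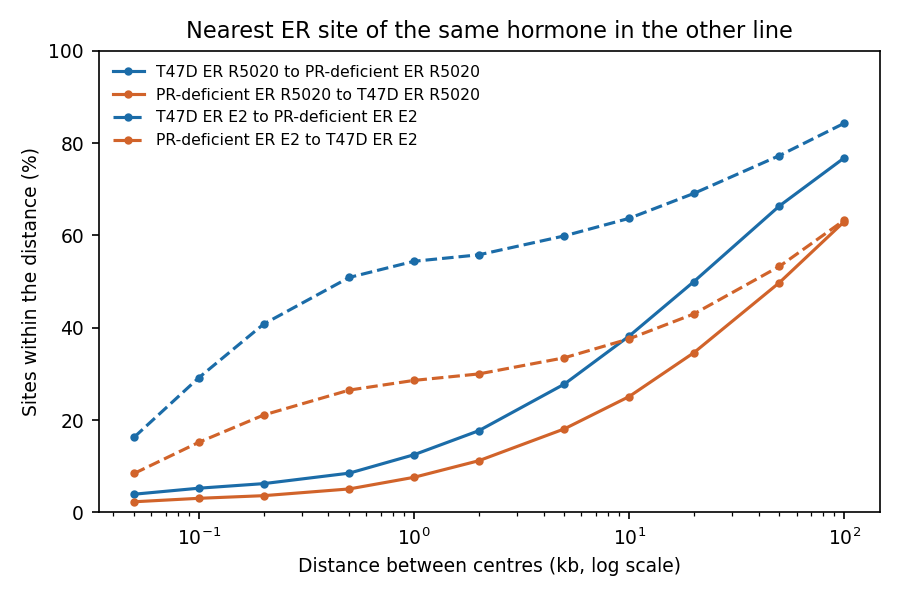
Percent of ER sites (y axis) whose nearest ER site of the other line, with the same hormone, has its centre within the distance on the x axis (kb, log scale); solid lines are R5020, dashed lines E2, blue T47D and orange PR-deficient. At 0.2 kb the blue R5020 line is at 6.24% and the blue E2 line at 40.8%.

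The higher-scoring sites of each line were more often shared. The score in the lists ranks sites within a list only. It moves in equal steps, and the lowest score kept was that of 46.3% of T47D sites and 52.1% of PR-deficient sites. At that lowest score 4.41% (3.64 to 5.3) of T47D sites were shared, against 17.7% (11.5 to 25.6) of the 124 sites 5 steps above it and 16% (12.2 to 20.4) of the 325 sites at 6 steps or more. In PR-deficient cells the shares at the same steps, which mark other ranks there, were 2.94% (2.48 to 3.46), 16.9% (9.31 to 27.1, 77 sites) and 15.1% (8.3 to 24.5, 86 sites). Most high-scoring sites were thus still listed in 1 line. Of the upper 10% of each list, 533 and 914 sites, 39 pairs were in common.

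**Figure D2:**
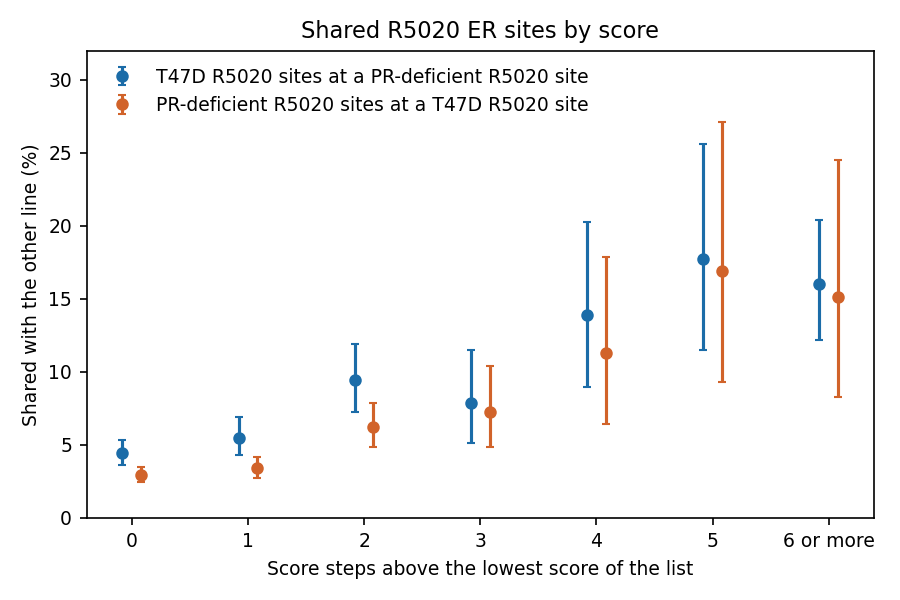
Percent of R5020 ER sites shared with the other line (y axis) by score steps above the lowest score of the own list (x axis), T47D in blue and PR-deficient in orange, with exact 95% intervals. Both lines go from under 5% at the lowest score to between 15.1% and 17.7% at 5 steps and above.

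Shared sites were slightly shorter than unshared sites at the median. The median T47D site was 239 bp long when shared and 248 bp when listed in T47D only, and the median PR-deficient site 210 bp and 237 bp. By length, 9.1% (7.5 to 10.9) of the T47D sites under 200 bp were shared. The T47D share was lowest, at 5.95% (5.18 to 6.79), from 200 bp to under 400 bp. It was 7.04% (5.32 to 9.11) at 400 bp or more. From the shortest class to the longest, the shares in PR-deficient cells were 5.85% (5.01 to 6.78), 3.36% (2.89 to 3.88) and 2.06% (1.3 to 3.11).

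The T47D sites lay at PR sites far more often than the PR-deficient sites did. PR sites of R5020-treated T47D cells were met by 442 T47D ER sites (8.28%, 7.55 to 9.05) and by 78 PR-deficient ER sites (0.853%, 0.675 to 1.06). PR sites of cells given both hormones were met by 18.5% (17.5 to 19.6) and 3.69% (3.31 to 4.09), and PR sites of E2-treated cells by 6.11% (5.48 to 6.78) and 2.67% (2.35 to 3.02). All 3 PR lists were made in T47D cells, and the difference in line between the PR lists and the PR-deficient ER list cannot be told apart from the deficiency in PR.

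Among unshared sites the same order held for each of the 3 PR lists. With R5020, 422 of the 4976 sites listed in T47D only (8.48%, 7.72 to 9.29) and 62 of the 8778 sites listed in PR-deficient cells only (0.706%, 0.542 to 0.905) lay at a PR site. With both hormones the shares were 18.5% (17.4 to 19.6) and 3.12% (2.77 to 3.51). Any of the 3 PR lists was met by 1252 sites of T47D only (25.2%, 24 to 26.4) and by 459 of PR-deficient only (5.23%, 4.77 to 5.72). Sites that were shared stood with the T47D sites here: 86 of the 362 (23.8%, 19.5 to 28.5) lay at a PR site of any treatment, although at PR sites of R5020 they were at 5.52% (3.41 to 8.4), between the unshared classes.

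The reChIP list gave another picture. Its sites were met by 8.67% (7.93 to 9.46) of all T47D sites and by 9.13% (8.55 to 9.74) of all PR-deficient sites. Split by class the shares were 9.39% (6.59 to 12.9) of shared sites, 8.62% (7.86 to 9.44) of T47D-only sites and 9.13% (8.53 to 9.75) of PR-deficient-only sites, and the 3 intervals overlap. So 801 ER sites listed only in the PR-deficient line fell at a reChIP site of T47D cells given both hormones. Of the same class 274 fell at a PR site of that treatment and 62 at a PR site of R5020. The reChIP list itself met the single lists little at its top. Of its 100 highest sites, 8 lay at a PR site and 11 at a T47D ER site of both hormones, and 66 were in no other list. Whether reChIP sites are places of ER and PR together was not tested.

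**Figure D3:**
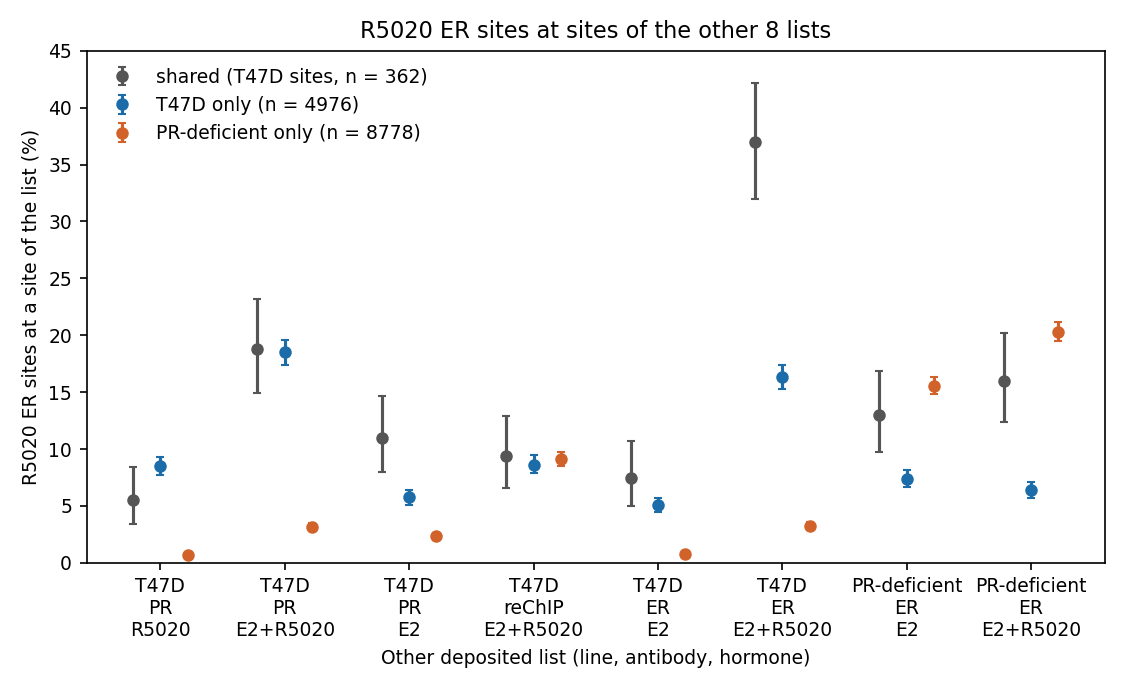
Percent of R5020 ER sites (y axis) at a site of each of the other 8 lists (x axis), for shared sites (grey), T47D-only sites (blue) and PR-deficient-only sites (orange), with exact 95% intervals. PR-deficient-only sites are at 0.706% and 3.12% for PR with R5020 and with both hormones, against 8.48% and 18.5% of T47D-only sites, and the 3 classes lie between 8.62% and 9.39% at the reChIP list.

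The shares at PR and reChIP sites were also read by score within each list. In T47D, 5.14% (4.3 to 6.09) of the lowest-scoring ER sites lay at a PR site of R5020, against 20.9% (14.8 to 28.1) at 4 steps above the lowest and 19.4% (15.2 to 24.1) at 6 steps or more. In PR-deficient cells it was 0.819% (0.583 to 1.12) at the lowest score and 0 of 86 sites at 6 steps or more (exact interval 0 to 4.2%). At reChIP sites both lines had larger shares at higher scores: T47D from 4.33% (3.56 to 5.21) to 30.2% (25.2 to 35.5), and PR-deficient cells from 6.19% (5.52 to 6.91) to 37.2% (27 to 48.3). Equal steps are not equal ranks: 6 steps or more took in 6.09% of the T47D list and 0.941% of the PR-deficient list. By rank, the upper 5% of each list, 266 and 457 sites, lay at a PR site of R5020 in 21.4% (16.7 to 26.9) of T47D and 0.875% (0.239 to 2.23) of PR-deficient cases. At reChIP sites the upper 5% stood at 33.8% (28.2 to 39.9) and 24.7% (20.8 to 28.9). Both lines thus had more reChIP sites among their upper 5% than over the whole list, and at PR sites of R5020 the intervals of the lines did not overlap.

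**Figure D4:**
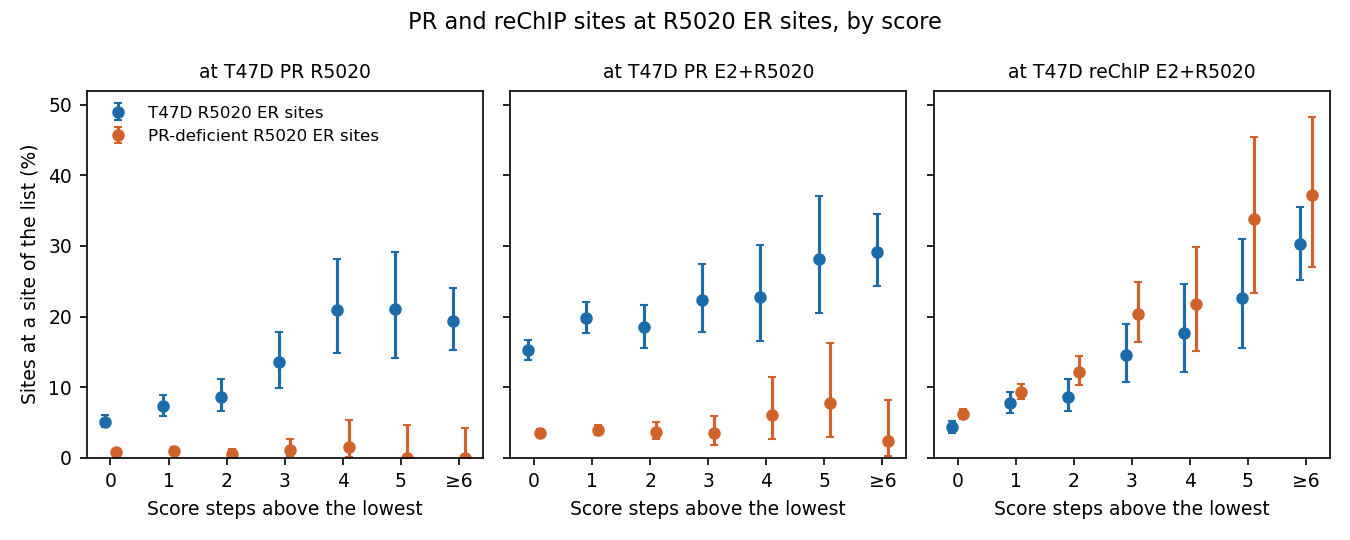
Percent of R5020 ER sites (y axis) at a T47D PR site of R5020, at a T47D PR site of both hormones and at a reChIP site (panels, left to right), by score steps above the lowest (x axis), T47D in blue and PR-deficient in orange, with exact 95% intervals. At 6 steps or more T47D is at 19.4% and PR-deficient at 0% in the left panel, and at 30.2% and 37.2% in the right panel.

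Long sites carried the same difference. Of the 753 T47D sites of 400 bp or more, 22.3% lay at a PR site of R5020, 38.6% at a PR site of both hormones and 21.0% at a reChIP site, against 6.21%, 17.4% and 5.97% of the sites from 200 bp to under 400 bp. Of the 1066 PR-deficient sites of 400 bp or more, the shares were 0.563%, 2.25% and 13.1%. Longer sites meet another list more easily by their length alone, and in PR-deficient cells the longest class was still the lowest of the 3 length classes at both PR lists.

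ER sites of the other treatments lay at R5020 sites of both lines. ER lists of 1 line are taken to share the subtracted vehicle library, so overlaps within a line are given for description only. T47D R5020 sites met 5.21% (4.63 to 5.84) with the E2 list and 17.7% (16.7 to 18.8) with the list of both hormones in T47D, and 7.74% (7.03 to 8.49) and 7.04% (6.37 to 7.76) with those of PR-deficient cells. PR-deficient R5020 sites met 15.4% (14.7 to 16.2) and 20.2% (19.3 to 21) in their own line, and 1.07% (0.871 to 1.31) and 4.56% (4.14 to 5.01) in T47D. The order of the lines at their own list of both hormones turned with the overlap rule: with centres within 200 bp, 15.4% of T47D-only and 7.7% of PR-deficient-only sites met it, against 16.3% and 20.3% by 1 bp. At the E2 list of their own line, 200 bp windows around the centres gave 2.92% (2.49 to 3.41) of T47D and 6.36% (5.86 to 6.88) of PR-deficient sites. Across the lines, T47D R5020 sites thus lay at E2 sites of the other line in 7.74% and PR-deficient ones in 1.07%, the E2 lists holding 7742 and 4014 sites. Sites shared by the lines were found in the T47D list of both hormones at 37.0% (32 to 42.2), against 16.3% (15.3 to 17.4) of T47D-only and 3.22% (2.86 to 3.62) of PR-deficient-only sites.

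Most R5020 sites that met an E2 site of their own line lay wholly inside it. A PR-deficient R5020 site had a median length of 279 bp where it overlapped an E2 site of its own line, the E2 site a median of 1652 bp, and 1349 of the 1409 pairs (95.7%) had the R5020 site wholly inside, with a median of 260 bp between centres. In T47D the pairs with the E2 list were alike in form, with the R5020 site wholly inside in 98.2% of 278 and a median of 159 bp between centres. Long sites leave more room between centres, so these distances are not set against those of short sites. In T47D, 595 of the 971 pairs with the list of both hormones (61.3%) had centres within 50 bp, those sites being about as short as the R5020 sites at a median of 216 bp against 240 bp. Where a T47D ER site met a PR site of R5020, the reverse held for size: the ER site had a median of 369 bp and the PR site 156 bp, and in 52.3% of the 493 pairs the ER site enclosed the PR site.

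The E2 sites of PR-deficient cells that met an R5020 site were mainly those not listed in T47D. Of the 5495 E2 sites listed in that line alone, 1080 (19.7%, 18.6 to 20.7) held an R5020 site of the line, against 56 of the 2247 (2.49%, 1.89 to 3.22) also listed in T47D. In T47D the shares were 6.69% (5.58 to 7.94) of the 1810 E2 sites listed there alone and 6.08% (5.12 to 7.16) of the 2204 listed in both lines. With centres within 200 bp the PR-deficient shares were 9.83% (9.05 to 10.6) and 1.42% (0.976 to 2). The shared vehicle within a line touches both classes of E2 site, and its part in the difference was not tested.

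None of the other 8 lists held 55.6% of the R5020 sites of T47D or 61.2% of those of PR-deficient cells. Of the shared sites 28.7% of the T47D members had no site in any of the 8, against 57.6% of T47D-only sites. In the upper 5% of each list by rank, 7.52% (4.65 to 11.4) of T47D sites and 36.3% (31.9 to 40.9) of PR-deficient sites were in none of the 8.

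The sites were gathered in a few regions, and these differed by line. Chromosome 3 held 944 T47D sites (17.7% of the list) and 583 PR-deficient sites (6.38%), and chromosome 7 held 288 (5.4%) and 1179 (12.9%). In bins of 10 Mb, the 10 fullest held 29.9% of T47D sites and 29.2% of PR-deficient sites, against 13.3% and 13.0% for the E2 lists of the lines, and 4 of the 10 fullest bins were common to both R5020 lists. The fullest T47D bin, chromosome 3 from 190 to 200 Mb, held 472 T47D ER sites, 255 PR-deficient ER sites and 437 T47D PR sites of R5020, but 19 T47D ER sites of E2. The fullest PR-deficient bin, chromosome 11 from 60 to 70 Mb, held 425 sites against 114 in T47D. Chromosome 7 from 150 to 160 Mb held 172 PR-deficient and 6 T47D sites, and its neighbour from 140 to 150 Mb 138 and 6.

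**Figure D5:**
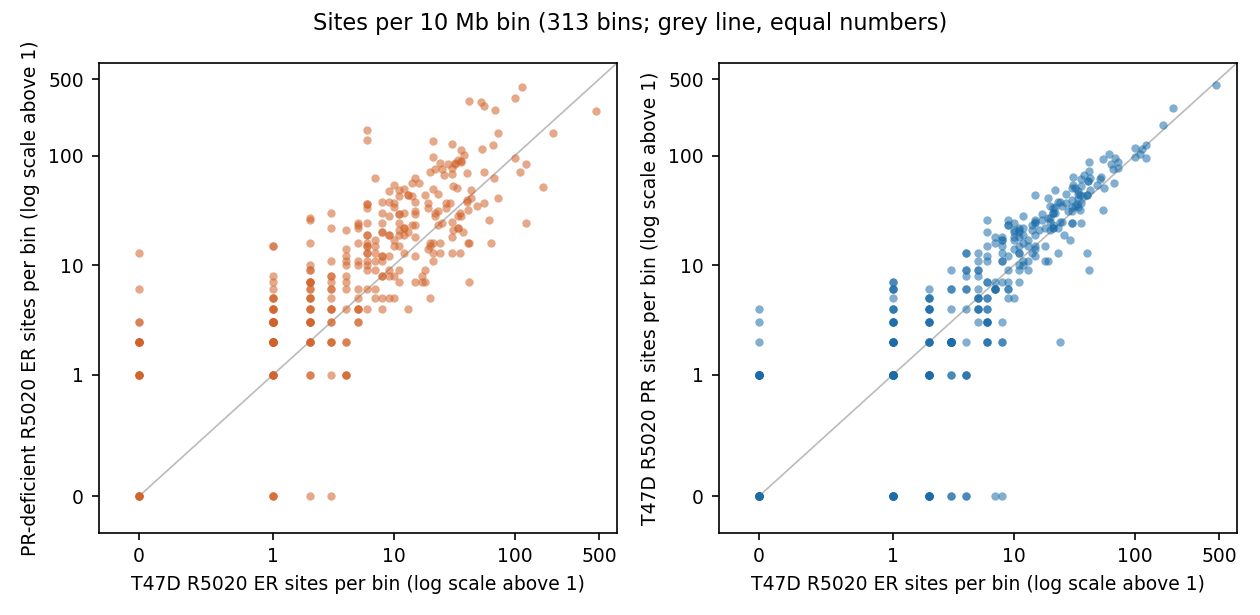
Sites per 10 Mb bin, T47D R5020 ER (x axes) against PR-deficient R5020 ER (left y axis) and T47D R5020 PR (right y axis), all axes logarithmic above 1; each point is 1 of 313 bins and the grey line marks equal numbers. Over the counts without log scale, the Pearson correlation is 0.97 for the right panel and 0.57 for the left (Spearman 0.89 and 0.82). In the left panel 2 bins at 6 T47D sites hold 138 and 172 PR-deficient sites.

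Over the 313 bins with a site in any list, T47D R5020 ER counts had a Pearson correlation of 0.97 (Spearman 0.89) with T47D R5020 PR counts and 0.57 (0.82) with PR-deficient R5020 ER counts. The points of 1 list come from 1 library, and these correlations are a description. PR-deficient R5020 ER counts had a Pearson correlation of 0.59 (Spearman 0.79) with T47D R5020 PR counts. The number of T47D ER sites per bin thus followed the PR list of the same line more closely than the ER list of the other line by Pearson's measure. Both T47D lists come from the same line and treatment, for which there is 1 input library. The part of this in the correlation was not tested.

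The share of common sites and the difference at PR sites of R5020 were as large outside the crowded bins. The 22 bins with over 100 sites in either list held 38.8% of T47D sites and 42.2% of PR-deficient sites. Outside them 7.22% (6.36 to 8.16) of T47D sites and 4.46% (3.92 to 5.06) of PR-deficient sites were shared, against 6.09% (5.1 to 7.21) and 3.3% (2.75 to 3.91) inside. Unshared sites outside these bins lay at PR sites of R5020 in 9.2% of T47D and 0.594% of PR-deficient cases. The E2 sites of PR-deficient cells alone held an R5020 site in 15.7% (14.7 to 16.9) outside these bins, against 1.81% (1.27 to 2.5) of E2 sites of both lines.

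Named sites show the 3 classes. The highest-scoring T47D site, chr3:127022832-127023815 (984 bp, score 100.36), was at a PR site of R5020, a PR site of both hormones, a reChIP site and a T47D ER site of both hormones, and at no PR-deficient site. The next, chr11:120507498-120508426 (929 bp, score 83.93), met 6 of the other lists, again with PR after R5020 and after both hormones. The T47D-only site met by most lists among the 10 highest was chr14:69036490-69037245 (756 bp, score 56.56), in 7 of the 8. Not all high T47D sites lay at a site of the PR ChIP lists: those on chromosome Y at 13472949 to 13473206 (score 82.11), on chromosome 5 at 134263619 to 134263799 (score 65.69) and on chromosome 1 at 121468056 to 121468300 (score 63.86) met only the T47D ER list of both hormones and the reChIP list. Whether these sites, the one on chromosome Y included, are places of ER binding was not tested.

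The 5 highest PR-deficient sites met no PR list, and over the whole PR-deficient list only 5.93% of sites met any of them. First was chr12:38447052-38447316 (265 bp, score 111.68), found also in both other ER lists of that line and nowhere else. The one ranked 3 was chr15:30241700-30241924 (225 bp, score 87.4), in no other list at all, as were chrX:125715173-125715356 (184 bp, score 77.69) and chr6:158195195-158195328 (134 bp, score 77.69). Of the 100 highest sites 0 lay at a PR site of R5020, 2 at a PR site of both hormones and 38 at a reChIP site, and 31 were in no other list. The 100 highest T47D sites counted 26, 36, 42 and 7 in the same order. Over the whole PR-deficient list the shares at these PR and reChIP lists were 0.853%, 3.69% and 9.13%. Over the whole T47D list they were 8.28%, 18.5% and 8.67%.

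The best-ranked shared pair was chr1:155514243-155514429 in T47D (score 49.27, rank 15) with chr1:155514272-155514358 in PR-deficient cells (score 106.83, rank 2), met by ER sites of E2 and of both hormones in T47D and of both hormones in PR-deficient cells, and by no PR site. All 10 best-ranked shared pairs lay at a T47D ER site of both hormones and 1 of them lay at a PR site. That 1 was chr22:21680433-21680669 in T47D with chr22:21680495-21680574 in PR-deficient cells, at PR sites of E2 and of both hormones. Of the 365 pairs 2 were at PR sites of R5020, PR sites of both hormones and reChIP sites together. These were chr7:157413429-157414262, ranked 21 in T47D and 433 in PR-deficient cells, which also met every other ER list, and chr19:44920083-44920403, ranked 497 and 5956.

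Part of the highest sites lay beside stretches without any site. Within 2 Mb of one of the 21 stretches of 3 Mb or more that hold no site in any list lay 679 T47D sites (12.7%) and 593 PR-deficient sites (6.49%), but 35 and 21 of the 100 highest. Of these sites 7.51% (5.64 to 9.76) and 8.6% (6.47 to 11.2) were shared, against 6.78% and 3.97% over the whole lists. Chromosome Y held 85 T47D and 63 PR-deficient sites, of which 5 and 7 were among the 100 highest, and 9 of each were shared. These were 1.59% and 0.689% of the lists, against 0.125% and 0.0387% of the E2 lists of the lines. Of the T47D ER list of both hormones 1.75% lay on chromosome Y, and of the reChIP list 3.02%. Whether sites on chromosome Y or beside such stretches are places of ER binding was not tested. Without both kinds of site, 6.66% (5.96 to 7.41) of T47D sites and 3.64% (3.25 to 4.06) of PR-deficient sites were shared.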

How the data were processed

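Each of the 26 samples is 1 library of its own group, and 10 had a list of sites. The authors used Bowtie2, MACS and the hg19 build, per the submitters' processing notes, with versions, settings and roles not stated there. The vehicle sample was subtracted, per the labels. The deposited lists give chromosome, start, end, length and a score, which the labels do not define; scores were used only to rank sites within a list. In both R5020 ER lists 100% of the scores were whole multiples of 1 step (within 0.05 step), 1.82 in T47D and 4.86 in PR-deficient cells. Depth is unknown.

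All rows were used. Overlaps, centre distances and exact 95% intervals were computed in Python 3.11.15 (SciPy 1.17.1, pandas 2.3.3, NumPy 2.4.6), figures with matplotlib 3.10.9; the overlap code was tested on simulated data. Sites were named by fixed rules: the 5 highest of each list, the 10 best-ranked shared pairs, the 10 highest unshared sites per line, pairs that also met PR with R5020, PR with both hormones and reChIP, and the 3 highest found in no other list; the text gives a selection. The members, classes and rules were chosen with earlier results of these data known. The upper 5% by rank was added after seeing the data. Alternatives varied the overlap rule, the score cut, the list lengths and the regions. Genes, motifs and sequences were not analysed here, since no hg19 genome or annotation was used.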

Additional observations from a re-analysis of the deposited data

How the results depend on the processing

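The 2 lines shared few sites under each of the 10 alternatives, with values of 4.38% to 10.8% of T47D sites and 2.56% to 6.65% of PR-deficient sites. The ends of these ranges came from asking that 50% or more of each site be covered (4.38% and 2.56%) and from a gap of up to 500 bp (10.8% and 6.65%). With the lowest score raised by 1 step 6.03% of T47D sites were shared, with the upper 50% of each list 6.11% and 3.57%, with lists of equal length 4.76% and 4.72%, and without the crowded 10 Mb bins, an alternative chosen after seeing the data, 4.46% of PR-deficient sites.

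The T47D-only sites lay at PR sites more often than PR-deficient-only sites in all 10, by 2.82 to 11.1 percentage points for PR with R5020 and by 10.5 to 19.6 for PR with both hormones. The difference at reChIP sites ran from -3.1 to 1.64 points, on both sides of 0. At ER sites of both hormones in the same line, the difference of -4.03 points changed sign under 6 alternatives: 11.5 with the 50% overlap, 7.69 with centres within 200 bp, 7.71 with windows of 200 bp, 3.11 with the raised lowest score, 2.71 with the upper 50% and 1.55 without the crowded bins. The cause was not tested. At E2 sites of the same line it was -10.5 points, -3.64 with centres within 200 bp and -0.352 with the 50% overlap.

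No paired analysis was possible because the lines have 1 library each per treatment. Leaving out a replicate was not possible for the same reason, and depth could not be used to judge low-scoring sites since the lists give no read numbers.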

Other observations

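Neighbouring sites within a list also differed in spacing. Gaps between successive sites had a median of 51.4 kb in the T47D R5020 list and 32.8 kb in the PR-deficient one, against 169 and 77.1 kb in the E2 lists. Gaps of 500 bp or less made up 5.19% and 9.01% of all gaps with R5020. More sites leave shorter gaps, and the lists hold 5338 and 9141 sites with R5020 and 4014 and 7742 with E2. The part of list size in these differences was not tested.

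The 100 highest R5020 sites held more short and more long sites than their lists. They had a median of 215.5 bp in T47D and 188 bp in PR-deficient cells, below the 248 and 236 bp of all sites. Under 200 bp were 42 and 54 of them, against 21.6% and 30.7% of all sites, and 22 and 12 reached 500 bp, against 6.29% and 5.27%. In the E2 lists the 100 highest had medians of 1911 and 1924 bp, above those of all E2 sites, and 100 of 100 reached 500 bp in each line.

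By chromosome the shared share of T47D sites was 3.07% (2.07 to 4.38) of the 944 on chromosome 3, the most crowded in T47D. On chromosome 7, the most crowded in PR-deficient cells, it was 2.12% (1.38 to 3.11) of the 1179 PR-deficient sites and 8.68% (5.7 to 12.5) of the 288 T47D sites.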
